A study of Homo sapiens with 6 samples.

Results

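Genes of the hypoxia response and of glycolysis were compared between U87MG cells infected with a control lentivirus and U87MG cells infected with a lentivirus that carries LMO2. The list has 41 genes, chosen by name as known parts or targets of the hypoxia-inducible factor (HIF) pathway and as enzymes and transporters of glycolysis, a rule that uses no measured value. The choice was nevertheless made with earlier results of these data known. Values were available for 40 of the 41 genes, out of 27257 genes in the library tables, and EGLN3, a prolyl hydroxylase, was not analysed here. All 40 were among the 16092 genes that had enough reads to be tested. The 41 genes fall into 4 groups by role: 5 HIF subunits and prolyl hydroxylases (EGLN3 included), 13 HIF targets outside glycolysis, 6 genes of glucose transport and glycolysis control, and 17 glycolytic enzymes.

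U87MG is an established human glioblastoma cell line, and the LMO2 protein is an adaptor with LIM domains that joins other proteins into transcriptional complexes. RNA-seq of total RNA was performed on 3 libraries of each group, here called U87MG-control and U87MG-LMO2. Cells of both groups were the same line, had received a lentivirus for 24 h and were grown in DMEM with 10% serum and antibiotics, so no group is uninfected, and the labels give neither the oxygen level nor the cell density. No label says that the libraries came from separate cultures, so every p-value measures only the spread between these libraries, which may be technical.

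HIF is a pair of proteins, an alpha subunit (HIF-1 alpha from HIF1A or HIF-2 alpha from EPAS1) and the constant partner encoded by ARNT. When oxygen is present, prolyl hydroxylases such as EGLN1 mark the alpha subunit, the VHL protein binds the mark and the subunit is destroyed; when oxygen is scarce the subunit persists, enters the nucleus and switches on genes for pH control, blood vessel growth, autophagy and glucose use. Glycolysis splits glucose into pyruvate, and lactate dehydrogenase turns pyruvate into lactate, a route that glioblastoma cells use heavily even with oxygen. HIF is controlled mainly at the protein level, which RNA-seq does not measure.

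HIF binds a short core sequence, ACGTG or GCGTG, near many of its targets. The 250 bases upstream of the start site were read for 37 of the 40 genes from the RefSeq promoter table (build GRCh38.p14). No promoter was available for NDRG1, BNIP3L and SLC2A3. Each gene was read at a single start site, so the shares below depend on that choice, and other start sites were not searched. ACGTG or GCGTG stood on either strand of 24 of the 37 promoters (64.9%), against 43.1% of all 27305 promoters and 55.8% of the 11924 promoters of tested genes. ACGTG alone stood in 15 of them (40.5%), against 18.7% of all promoters and 22.9% of those of tested genes. GCGTG, counted in the same way, stood in 14 (37.8%), against 31.9% of all promoters and 43.9% of those of tested genes. These promoters were also richer in G and C, with a median of 68.8% against 64% for tested genes and 58% for all promoters, and the part of base composition in the motif counts was not tested. By role, 12 of 15 promoters of HIF subunits, hydroxylases and targets (80%) and 12 of 22 promoters of glycolysis and glucose transport genes (54.5%) held a match. A match is only a description of the letters in this window and does not show that HIF binds there.

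The promoters of the 3 genes that were called as different between the groups (ADM, P4HA1 and LDHB), of CA9, which had among the lowest fold changes, and of LDHA, the partner of LDHB, are printed below from 5′ to 3′ on the strand of the gene. Capitals mark ACGTG or GCGTG, or the same motif read from the other strand (CACGT or CACGC). Where both orientations of ACGTG overlap, the capitals read CACGTG.
ADM promoter, chr11:10304823-10305072, plus strand: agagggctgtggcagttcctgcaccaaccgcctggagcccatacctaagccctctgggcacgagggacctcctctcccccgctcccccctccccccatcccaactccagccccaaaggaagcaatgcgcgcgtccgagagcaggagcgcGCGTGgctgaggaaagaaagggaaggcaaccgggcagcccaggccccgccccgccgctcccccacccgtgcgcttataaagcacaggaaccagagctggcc
P4HA1 promoter, chr10:73096867-73097116, minus strand: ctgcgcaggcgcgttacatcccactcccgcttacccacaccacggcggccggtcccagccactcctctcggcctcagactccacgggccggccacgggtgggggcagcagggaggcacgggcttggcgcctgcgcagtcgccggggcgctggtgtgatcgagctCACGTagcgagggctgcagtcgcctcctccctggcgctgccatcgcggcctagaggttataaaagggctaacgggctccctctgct
CA9 promoter, chr9:35673678-35673927, plus strand: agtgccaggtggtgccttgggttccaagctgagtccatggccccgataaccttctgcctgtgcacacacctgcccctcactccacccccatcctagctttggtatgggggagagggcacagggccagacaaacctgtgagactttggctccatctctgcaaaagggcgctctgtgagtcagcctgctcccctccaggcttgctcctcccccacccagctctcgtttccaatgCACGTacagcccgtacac
LDHA promoter, chr11:18394313-18394562, plus strand: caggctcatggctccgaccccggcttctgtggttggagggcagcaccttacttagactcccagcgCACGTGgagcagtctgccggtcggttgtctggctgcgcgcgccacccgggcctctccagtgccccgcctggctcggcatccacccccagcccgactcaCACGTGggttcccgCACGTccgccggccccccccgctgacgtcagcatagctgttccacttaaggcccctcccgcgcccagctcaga
LDHB promoter, chr12:21657843-21658092, minus strand: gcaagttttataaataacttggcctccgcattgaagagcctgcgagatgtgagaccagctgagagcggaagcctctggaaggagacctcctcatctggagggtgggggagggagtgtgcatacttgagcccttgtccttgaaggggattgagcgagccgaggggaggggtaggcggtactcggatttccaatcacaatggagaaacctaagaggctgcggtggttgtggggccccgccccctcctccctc
The windows of ADM, P4HA1 and CA9 held 1 match each, and the last base of the match in CA9 lay 14 bases before the start site. The LDHA window held 5 matches, 2 pairs of which were the overlapping orientations of CACGTG, and the LDHB window held none.

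The libraries held 11428432 to 13537284 expected counts in U87MG-control and 14630627 to 17892955 in U87MG-LMO2. LMO2 itself, the check of the labels, was at 0.378 to 0.802 CPM (read counts normalised to library size) in U87MG-control. In U87MG-LMO2 replicates 1, 2 and 3 it was at 332.5, 306.5 and 876.4 CPM. Of the glioma markers, VIM (10890.4 to 13134.1 CPM) and CD44 (1119.0 to 1499.3 CPM) were abundant in every library. NES was present in every library at a much lower level (40.1 to 48.8 CPM), whereas S100B, SOX2 and OLIG2 did not exceed 1.06 CPM in any. GFAP was not tested because it was among the genes damaged in 1 library table. The 6 markers of blood, endothelial, epithelial, oligodendrocyte and neuronal cells summed to 6.06 to 6.95 CPM in U87MG-control and 5.83 to 6.94 CPM in U87MG-LMO2. In each group, 1 library stood apart from the others. Over all genes, the chi-square per degree of freedom between control replicate 1 and the other controls was 10.9 and 10.3, against 2.26 between replicates 2 and 3. In U87MG-LMO2 the values were 37.8 and 52.1 between replicate 3 and the other libraries, against 7.70 between replicates 1 and 2. Results are given for all 6 libraries and also without these libraries. Showing control replicate 1 apart was already part of the rule for this list.

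Across the 6 libraries, few of these genes differed beyond the replicate spread: ADM was higher in U87MG-LMO2, P4HA1 and LDHB were lower, and 37 of the 40 genes were not called. A gene was called when its edgeR quasi-likelihood p, adjusted by Benjamini-Hochberg over all 16092 genes tested, was under 0.05. Of all genes tested, 4.72% were called higher and 2.75% lower, so 1 and 2 calls among 40 genes are shares near the background. At an unadjusted p under 0.05 there were 11 of the 40, against 25.7% of all genes. The median log2 fold change was −0.18, against −0.01 over all genes, with 17 genes above 0 and 23 below. In 9 of the 40 genes the CPM of the groups did not overlap, against 34.1% of all genes. These are bulk RNA measurements, in which fewer cells of a type and less RNA per cell cannot be told apart.

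**Figure D1:**
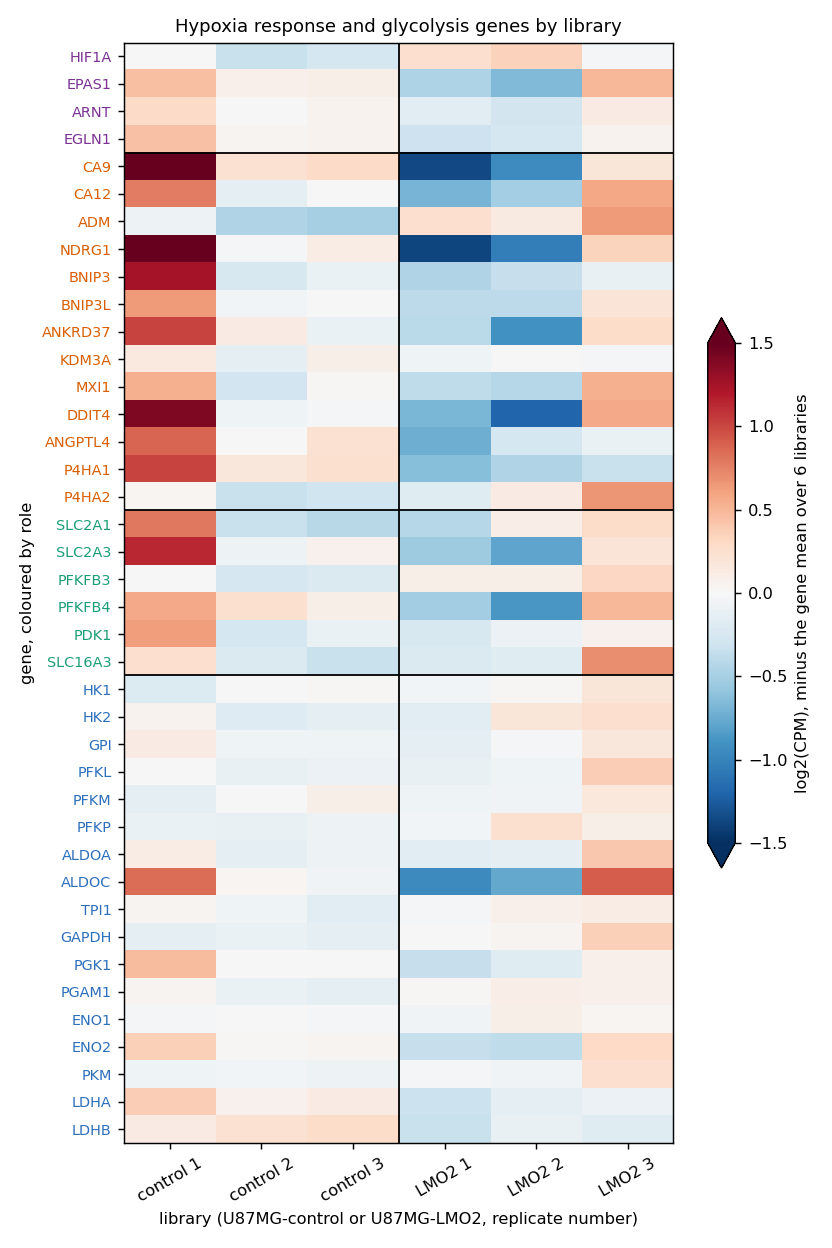
The 40 genes, grouped by role (rows), in the 6 libraries (columns), with colour giving log2 CPM minus the mean of the gene over the 6 libraries. Control replicate 1 is the highest control in 33 rows and LMO2 replicate 3 the highest U87MG-LMO2 library in 34 rows, with the darkest cells mostly among the HIF targets.

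The spread within groups was then described library by library. Control replicate 1 was the highest control library in 33 of the 40 genes, against 40.98% of all genes tested, and exceeded 1.5 times the mean of the other controls in 14 of them, against 4.98%. Similarly, LMO2 replicate 3 was the highest U87MG-LMO2 library in 34 of the 40 genes, against 40.2% of all genes, and exceeded 1.5 times the mean of the other U87MG-LMO2 libraries in 13, against 9.22%. Both held for 30 of the 40 genes, against 16.9%. These are counts without a test, because each library is 1 sample.

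Among the 13 HIF targets, control replicate 1 was highest in 13 and LMO2 replicate 3 in 12, and the median ratios to the other libraries of the group were 1.74 and 1.61. The 6 genes of glucose transport and glycolysis control were highest in both libraries, with median ratios of 1.59 and 1.57. The 17 glycolytic enzymes were highest in control replicate 1 for 10 genes and in LMO2 replicate 3 for 13, at median ratios of only 1.11 and 1.18. Summed over the 13 HIF targets, FPKM (fragment counts scaled to transcript length and library size) was 605.5, 269.9 and 283.9 in U87MG-control and 223.1, 234.3 and 367.3 in U87MG-LMO2. Control replicate 1 thus stood far above all other libraries, and LMO2 replicate 3 above the remaining 4. Over the 17 glycolytic enzymes the sum was 14431.4, 14097.7 and 13881.5 FPKM in U87MG-control and 14107.8, 14546.1 and 15999.8 FPKM in U87MG-LMO2. LMO2 replicate 3 had the highest sum, and the other 5 libraries lay close together. GAPDH was the largest part of each sum. It was at 7200.8 FPKM in LMO2 replicate 3, against 6125.1 and 6251.9 FPKM in LMO2 replicates 1 and 2. The sum thus follows the most abundant enzymes and does not show a rise of all 17. Levels and shares that compare genes by FPKM assume libraries that cover whole transcripts. The labels put "3 prime" beside the RNA isolation without saying whether only transcript ends were sequenced, in which case scaling by length would distort levels between genes.

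**Figure D2:**
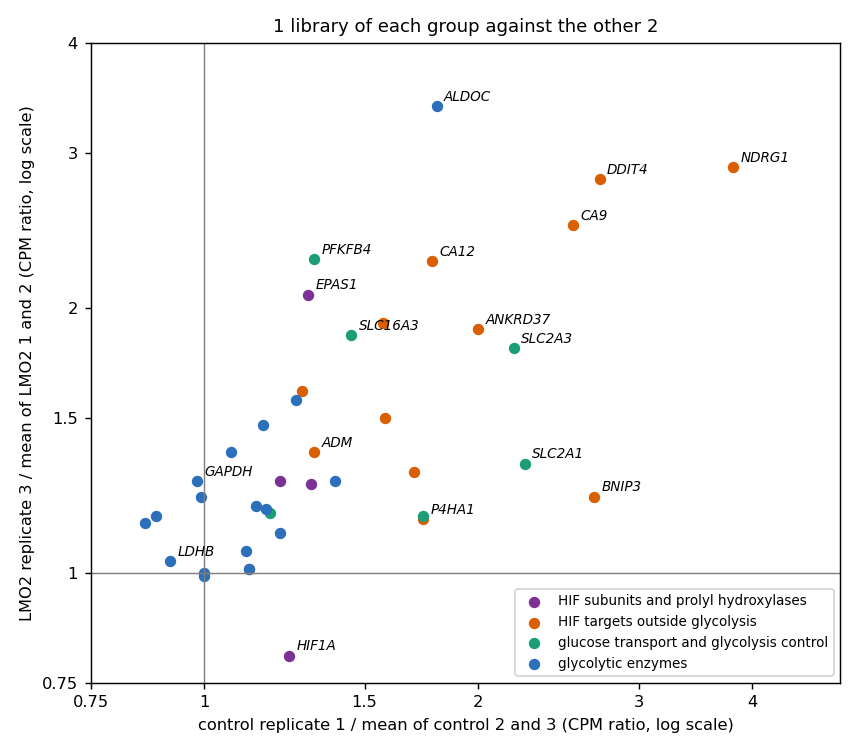
Each point is 1 gene, with its CPM in control replicate 1 over the mean of control replicates 2 and 3 on the x axis and its CPM in LMO2 replicate 3 over the mean of LMO2 replicates 1 and 2 on the y axis, both without unit and on log axes. Most HIF targets lie to the upper right, with NDRG1 at 3.81 and 2.89, while most glycolytic enzymes lie near 1 on both axes.

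NDRG1, a stress-induced gene that is a common hypoxia marker, showed the largest ratio in control replicate 1, 3.81. DDIT4, an inhibitor of the growth regulator mTORC1, had ratios of 2.72 in control replicate 1 and 2.80 in LMO2 replicate 3, and CA9, a cell-surface carbonic anhydrase that regulates pH, had 2.54 and 2.48. ALDOC, the brain-type aldolase, had the highest ratio in LMO2 replicate 3, 3.39, beside 1.80 in control replicate 1. BNIP3, a mitophagy receptor, differed between the pair, at 2.68 in control replicate 1 and 1.22 in LMO2 replicate 3. EPAS1, PFKFB4 and CA12 had larger ratios in LMO2 replicate 3 (2.07, 2.27 and 2.26) than in control replicate 1 (1.30, 1.32 and 1.78). HIF1A was the exception among the subunits, since its ratio was 1.24 in control replicate 1 but 0.805 in LMO2 replicate 3.

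None of the 3 HIF subunits and EGLN1 was called by edgeR or DESeq2, and their median log2 fold change was −0.27. An unadjusted edgeR p under 0.05 was found for 2 of these 4 genes, against 25.7% of all genes. HIF1A was 350.2, 276.9 and 289.0 CPM with the control virus and 413.9, 443.0 and 345.0 CPM with LMO2, listed in replicate order here and below. LMO2 replicates 1 and 2 were above every control, but LMO2 replicate 3 was just below control replicate 1, so the groups overlapped. The means were 305.4 ± 39.3 CPM for the controls and 400.7 ± 50.4 CPM for U87MG-LMO2 (SD, n = 3), and the log2 fold change was 0.39 ± 0.13 (SE, adjusted p = 0.106), which was not called. After a correction for GC content, which used limma in place of edgeR, it was 0.60 and called (adjusted p = 0.0117).

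EPAS1, the alpha subunit of HIF-2, was 726.8, 558.1 and 564.2 CPM with the control virus and 385.7, 335.9 and 746.9 CPM with LMO2. LMO2 replicates 1 and 2 lay below every control, whereas LMO2 replicate 3 was the highest library of all. The log2 fold change was −0.33 ± 0.27 (SE, adjusted p = 0.483), and the SD of U87MG-LMO2, 224.3 CPM around a mean of 489.5 CPM, exceeded the difference between the groups. Without LMO2 replicate 3, EPAS1 was called lower at a log2 fold change of −0.77 (adjusted p = 0.00454).

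ARNT, the constant partner, was 106.6, 86.5 and 90.1 CPM with the control virus and 77.2, 72.1 and 94.7 CPM with LMO2, and its groups overlapped through LMO2 replicate 3. Its log2 fold change was −0.21 ± 0.13 (SE, adjusted p = 0.345). EGLN1, the main oxygen-sensing prolyl hydroxylase, was 40.5, 30.8 and 31.1 CPM with the control virus and 24.2, 24.9 and 31.0 CPM with LMO2, with LMO2 replicate 3 between control replicates 2 and 3. The log2 fold change of EGLN1 was −0.35 ± 0.15 (SE, adjusted p = 0.190), the lowest of this role and not called.

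With length scaling, and under that assumption, the mean of U87MG-control was 119.0 FPKM for EPAS1 and 74.9 FPKM for HIF1A, and in U87MG-LMO2 the means were 90.8 and 95.9 FPKM. The EPAS1 share of the summed FPKM of HIF1A and EPAS1 was 62, 61.4 and 60.6% with the control virus and 42.3, 37.4 and 63.2% with LMO2. The shares of LMO2 replicates 1 and 2 were well under those of the controls, and the share of LMO2 replicate 3 was above all of them. The difference of the means was −13.7 percentage points, and the 2-sided exact permutation p was 0.4 (0.63 after Benjamini-Hochberg adjustment over 11 gene families). With 3 libraries a group, this test cannot give a p under 0.1. The difference ran from −21.5 percentage points without LMO2 replicate 3 to −8.59 without LMO2 replicate 2.

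Of the 13 HIF targets outside glycolysis, ADM was higher, P4HA1 was lower and 11 were not called, with a median log2 fold change of −0.67. Over all genes tested, 4.72% were called higher and 2.75% lower, so single calls say little about the role as a whole. ADM, which encodes adrenomedullin, a secreted peptide that widens blood vessels, was 61.4, 47.2 and 45.9 CPM with the control virus and 76.8, 71.0 and 101.1 CPM with LMO2. Every U87MG-LMO2 library was above every control, and within each group the highest value was again in control replicate 1 and in LMO2 replicate 3. The means were 51.5 ± 8.60 CPM for the controls and 82.9 ± 16.0 CPM for U87MG-LMO2 (SD, n = 3), a log2 fold change of 0.69 ± 0.16 (SE, adjusted p = 0.0422). The call was lost when any control library or LMO2 replicate 1 was left out, where adjusted p ran up to 0.162. It was also lost under the correction for GC content, which used limma in place of edgeR (adjusted p = 0.0800).

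P4HA1, the catalytic subunit of collagen prolyl 4-hydroxylase, was 54.7, 30.5 and 32.2 CPM with the control virus and 17.5, 19.9 and 21.6 CPM with LMO2. All U87MG-LMO2 libraries lay below all controls, and control replicate 1 stood well above the rest. Means were 39.1 ± 13.5 CPM for the controls and 19.7 ± 2.04 CPM for U87MG-LMO2 (SD, n = 3), and the log2 fold change was −0.99 ± 0.22 (SE, adjusted p = 0.0359). Without control replicate 1 it was −0.67 with an adjusted p of 0.0693. Leaving out any other library except LMO2 replicate 3 also ended the call, as did the correction for GC content (adjusted p = 0.0827).

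P4HA2, an alternative catalytic subunit of the same enzyme, was 144.8, 112.1 and 114.9 CPM with the control virus and 124.8, 154.8 and 224.9 CPM with LMO2. The groups overlapped, and its log2 fold change of 0.44 ± 0.21 (SE, adjusted p = 0.220) was not called. The P4HA2 share of the summed FPKM of both subunits was 77, 82.4 and 81.7% with the control virus and 90.2, 90.8 and 92.9% with LMO2. Every U87MG-LMO2 share was above every control share, by 11 percentage points between the means (exact permutation p = 0.1, the smallest possible, adjusted 0.28). Leaving out single libraries kept this difference between 9.29 and 12 percentage points.

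Carbonic anhydrases IX and XII, both enzymes of the cell surface that regulate pH, were set side by side. CA9 was 86.3, 33.2 and 34.7 CPM with the control virus and 11.1, 14.8 and 32.2 CPM with LMO2. Its groups did not overlap, but LMO2 replicate 3 came close to control replicates 2 and 3, and control replicate 1 lay far above. The log2 fold change of CA9 was −1.40 ± 0.46 (SE, adjusted p = 0.101), and it was called only when no filter on low counts was used (adjusted p = 0.0320) or when LMO2 replicate 3 was left out, alone or with control replicate 1. It was −0.81 (adjusted p = 0.335) without control replicate 1 and −1.98 (adjusted p = 0.0115) without LMO2 replicate 3. CA12 was 166.6, 89.4 and 98.3 CPM with the control virus and 60.5, 68.9 and 146.6 CPM with LMO2, with LMO2 replicate 3 above control replicates 2 and 3, and a log2 fold change of −0.36 (adjusted p = 0.554). The CA9 share of their summed FPKM was 58.9, 50.3 and 49% with the control virus and 33.6, 36.9 and 37.6% with LMO2. The groups did not overlap, and the means differed by −16.7 percentage points (exact permutation p = 0.1, adjusted 0.28), or −18.5 to −13.6 with single libraries left out.

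NDRG1 had the lowest log2 fold change of the whole list, −1.49 ± 0.60 (SE, adjusted p = 0.162), yet it was not called. Its values were 566.6, 141.6 and 155.9 CPM with the control virus and 55.5, 70.2 and 181.8 CPM with LMO2. LMO2 replicate 3 was above control replicates 2 and 3, and control replicate 1 lay far above every other library. The means were 288.0 ± 241.4 CPM for the controls and 102.5 ± 69.0 CPM for U87MG-LMO2 (SD, n = 3). Without control replicate 1 the log2 fold change was −0.53 (adjusted p = 0.580), and without LMO2 replicate 3 it was −2.19 (adjusted p = 0.0264).

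DDIT4 showed the same arrangement, at 153.4, 55.7 and 57.3 CPM with the control virus and 36.4, 25.5 and 86.7 CPM with LMO2. Again LMO2 replicate 3 was above control replicates 2 and 3, and the log2 fold change was −0.84 ± 0.50 (SE, adjusted p = 0.331). It was −0.19 (adjusted p = 0.862) without control replicate 1 and −1.51, which was called (adjusted p = 0.0373), without LMO2 replicate 3. BNIP3 was 97.7, 34.7 and 38.3 CPM with the control virus and 30.1, 32.2 and 38.0 CPM with LMO2, where control replicate 1 alone stood apart. Its log2 fold change of −0.76 ± 0.36 (SE, adjusted p = 0.217) became −0.13 (adjusted p = 0.669) without that library. BNIP3L, a related mitophagy receptor, was 89.8, 56.1 and 57.9 CPM with the control virus and 44.1, 44.1 and 66.1 CPM with LMO2, and the BNIP3 share of the summed FPKM of the 2 receptors was 69.9, 56.9 and 58.6% with the control virus and 59.4, 60.9 and 55.1% with LMO2. These shares overlapped, with a difference of −3.34 percentage points (exact permutation p = 0.7, adjusted 0.77).

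ANGPTL4, a secreted inhibitor of lipoprotein lipase, was 16.2, 8.82 and 10.3 CPM with the control virus and 5.30, 7.35 and 8.24 CPM with LMO2, with no overlap between the groups. Its log2 fold change was −0.75 ± 0.26 (SE, adjusted p = 0.112). MXI1, an antagonist of MYC, was 21.0, 11.9 and 14.7 CPM with the control virus and 11.1, 10.8 and 21.0 CPM with LMO2, and control replicate 1 and LMO2 replicate 3 had the same value. KDM3A, a histone demethylase, varied least of the targets relative to its level, from 44.4 to 54.1 CPM, and had a log2 fold change of −0.07 (adjusted p = 0.715). ANKRD37, an ankyrin-repeat protein, was the scarcest of the 40 genes, at 0.817 to 3.12 CPM, and had a log2 fold change of −0.67 ± 0.40 (SE).

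**Figure D3:**
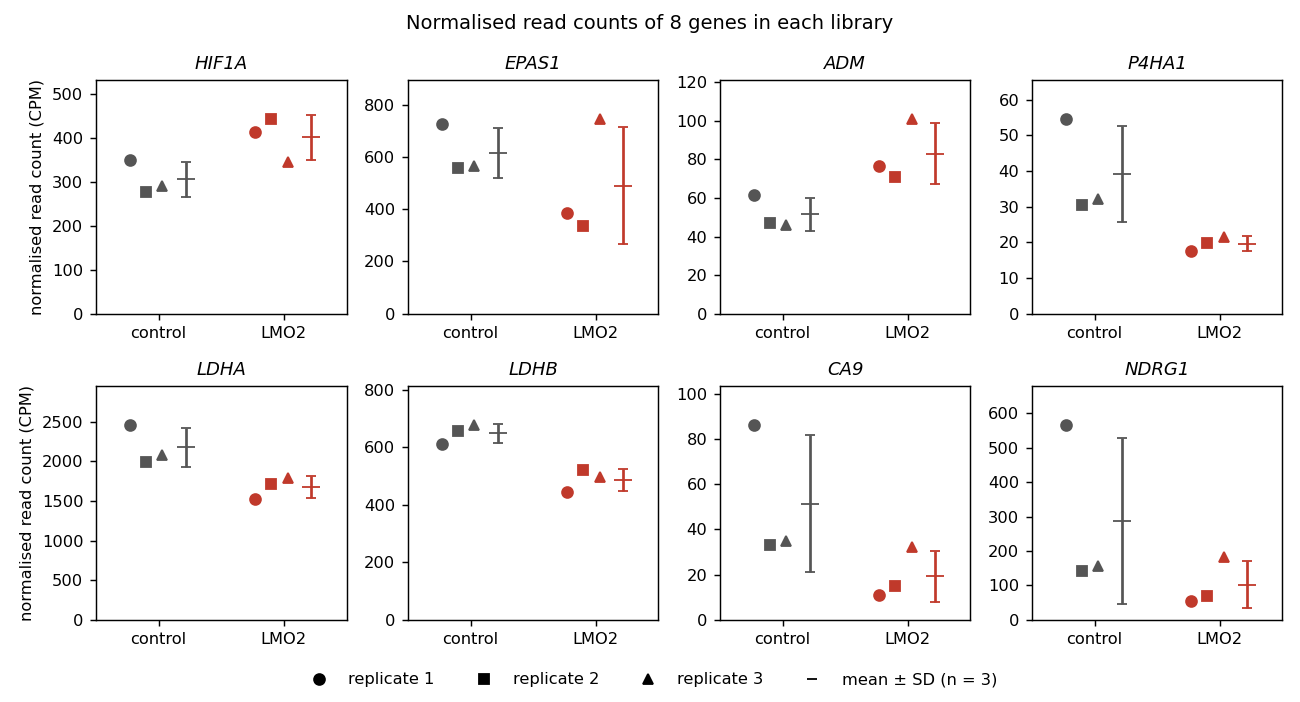
CPM of 8 of the genes in each library, 1 panel per gene with its own y axis from 0, with a marker shape for each replicate number and a bar for the mean ± SD of each group (n = 3). ADM, P4HA1, LDHB, LDHA and CA9 have groups that do not overlap, although LDHA and CA9 were not called. In NDRG1 and EPAS1 LMO2 replicate 3 lies within or above the range of the controls.

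None of the 6 genes of glucose transport and glycolysis control was called by edgeR or by DESeq2, and their median log2 fold change was −0.16. An unadjusted edgeR p under 0.05 was found for 1 of the 6, against 25.7% of all genes. SLC2A3, a high-affinity glucose transporter (GLUT3), had the lowest value of this role and was 91.3, 39.5 and 43.7 CPM with the control virus and 28.9, 24.1 and 47.7 CPM with LMO2. LMO2 replicates 1 and 2 were below every control and LMO2 replicate 3 was above control replicates 2 and 3, and the log2 fold change was −0.79 ± 0.35 (SE, adjusted p = 0.195). SLC2A1, the widespread glucose transporter GLUT1, was 57.6, 26.4 and 24.9 CPM with the control virus and 24.8, 35.7 and 40.4 CPM with LMO2. Control replicate 1 was the highest library, and LMO2 replicates 2 and 3 were above the other controls. Its log2 fold change was −0.11 (adjusted p = 0.863), and it turned to 0.39 (adjusted p = 0.368) without control replicate 1. The SLC2A3 share of the summed FPKM of the transporters was 59.7, 58.4 and 62.2% with the control virus and 52.1, 38.7 and 52.5% with LMO2, so the groups did not overlap, and the means differed by −12.3 percentage points (exact permutation p = 0.1, adjusted 0.28). That difference was −7.77 without LMO2 replicate 2 and −14.7 without LMO2 replicate 3.

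PFKFB3 and PFKFB4 make and remove fructose 2,6-bisphosphate, the activator of phosphofructokinase. PFKFB3 was 83.4, 69.8 and 71.7 CPM with the control virus and 88.5, 88.3 and 103.2 CPM with LMO2. All U87MG-LMO2 libraries lay above all controls, but the log2 fold change of 0.32 ± 0.11 (SE, adjusted p = 0.122) was not called. PFKFB4 was 79.5, 63.4 and 57.3 CPM with the control virus and 37.5, 29.5 and 76.0 CPM with LMO2, with only LMO2 replicate 3 inside the range of the controls, and a log2 fold change of −0.48 (adjusted p = 0.363). The PFKFB4 share of their summed FPKM was 54.7, 54.1 and 50.9% with the control virus and 35.2, 30.3 and 48.6% with LMO2. Every U87MG-LMO2 share was under every control share, and the means differed by −15.2 percentage points (exact permutation p = 0.1, adjusted 0.28), or −20.5 to −11.3 with single libraries left out.

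PDK1, the kinase that switches off pyruvate dehydrogenase and so keeps pyruvate out of the mitochondria, was 27.9, 15.1 and 16.9 CPM with the control virus and 15.4, 17.1 and 18.9 CPM with LMO2. Apart from control replicate 1 the libraries lay close together. SLC16A3, the lactate exporter MCT4, was 128.4, 92.3 and 85.2 CPM with the control virus and 92.4, 95.1 and 174.0 CPM with LMO2, and LMO2 replicate 3 was the highest library. Their log2 fold changes were −0.22 (adjusted p = 0.579) and 0.24 (adjusted p = 0.589).

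Of the 17 glycolytic enzymes, only LDHB was called, as lower, against 2.75% of all genes called lower and 4.72% higher. The median log2 fold change of the 17 was 0.09, with 12 genes above 0 and 5 below. By mean FPKM in U87MG-control, again assuming whole-transcript libraries, the order was led by GAPDH (5605.0), PKM (1928.7), ALDOA (1485.0), ENO1 (1334.5) and LDHA (1034.2), and in U87MG-LMO2 the same genes had 6525.9, 2062.7, 1527.7, 1350.8 and 776.3 FPKM. ALDOA and ENO1 did not differ beyond their spread in U87MG-LMO2, where ALDOA had an SD of 278.8 FPKM. Many of these enzymes have processed pseudogene copies of near-identical sequence, among them GAPDH, PGK1, PGAM1, LDHA, LDHB, ENO1, ALDOA, TPI1 and PKM, and how reads shared with such copies were counted is not given in the sources used here, so their values carry that uncertainty.

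LDHB encodes the heart-type subunit of lactate dehydrogenase. It was 611.7, 656.5 and 677.8 CPM with the control virus and 443.2, 520.1 and 495.8 CPM with LMO2. Each U87MG-LMO2 library was below each control, and neither control replicate 1 nor LMO2 replicate 3 was the highest of its group. The means were 648.7 ± 33.7 CPM for the controls and 486.4 ± 39.3 CPM for U87MG-LMO2 (SD, n = 3), and the log2 fold change was −0.42 ± 0.10 (SE, adjusted p = 0.0441). Leaving out any library except LMO2 replicate 3 ended the call, with log2 fold changes between −0.47 and −0.35 throughout, and so did the correction for GC content (adjusted p = 0.150).

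LDHA, the muscle-type subunit and a HIF target, was 2461.2, 1989.8 and 2079.2 CPM with the control virus and 1526.3, 1714.1 and 1793.1 CPM with LMO2. Here too the groups did not overlap, but the log2 fold change of −0.38 ± 0.12 (SE, adjusted p = 0.0842) did not pass the threshold, although DESeq2 called it (adjusted p = 0.0499). Its means were 2176.8 ± 250.4 CPM for the controls and 1677.8 ± 137.0 CPM for U87MG-LMO2 (SD, n = 3). The LDHB share of their summed FPKM was 29.1, 34.8 and 34.6% with the control virus and 32.2, 33.2 and 30.5% with LMO2, so the balance of the subunits overlapped between the groups (difference −0.793 percentage points, exact permutation p = 0.7, adjusted 0.77).

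GAPDH, which catalyses the oxidation step and is often used as a reference gene, had the highest log2 fold change of the enzymes. It was 7729.2, 8000.9 and 7744.3 CPM with the control virus and 8496.1, 8785.2 and 10970.4 CPM with LMO2. All U87MG-LMO2 libraries were above all controls, with LMO2 replicate 3 well above the others. The means were 7824.8 ± 152.7 CPM for the controls and 9417.2 ± 1352.8 CPM for U87MG-LMO2 (SD, n = 3), and the log2 fold change was 0.27 ± 0.12 (SE, adjusted p = 0.186). PFKP, the platelet-type phosphofructokinase, also had groups that did not overlap, at 423.9, 419.4 and 428.4 CPM with the control virus and 438.5, 535.0 and 482.6 CPM with LMO2, with a log2 fold change of 0.20 (adjusted p = 0.266).

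ALDOC was the enzyme most unlike the others, at 53.8, 30.7 and 29.2 CPM with the control virus and 15.6, 17.8 and 56.6 CPM with LMO2. LMO2 replicates 1 and 2 were the lowest libraries and LMO2 replicate 3 the highest, and the log2 fold change was −0.33 ± 0.47 (SE, adjusted p = 0.693). PGK1, the first ATP-producing enzyme of the route, was 707.4, 507.2 and 507.8 CPM with the control virus and 403.5, 449.0 and 539.4 CPM with LMO2, with a log2 fold change of −0.31 (adjusted p = 0.270). ENO2, the neuron-type enolase, was 127.7, 101.0 and 102.4 CPM with the control virus and 78.6, 76.6 and 122.2 CPM with LMO2, with a log2 fold change of −0.25 (adjusted p = 0.431). In these genes as well, LMO2 replicates 1 and 2 lay below the controls and LMO2 replicate 3 among them.

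The other 10 enzymes had log2 fold changes between 0.01 (GPI) and 0.19 (HK2) and groups that overlapped. HK1 ranged over the 6 libraries from 827.9 to 1084.2 CPM, HK2 from 146.3 to 198.8, GPI from 322.8 to 397.4, PFKL from 144.5 to 201.5 and PFKM from 156.1 to 191.0 CPM. Further down the pathway, ALDOA ranged from 2138.5 to 3182.6, TPI1 from 979.9 to 1178.7, PGAM1 from 761.5 to 893.0, ENO1 from 2453.4 to 2698.4 and PKM from 4749.5 to 5916.5 CPM.

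The shares of the remaining families overlapped between the groups. The HK2 share of the summed FPKM of HK1 and HK2, the enzymes that trap glucose in the cell, was 11.4, 8.43 and 8.51% with the control virus and 8.8, 10.5 and 9.84% with LMO2 (exact permutation p = 0.8). The PFKP share among the 3 phosphofructokinases was 59.6, 58.8 and 58.3% with the control virus and 60.5, 64.7 and 57% with LMO2 (p = 0.6 by the same exact test). ALDOC made up 1.96, 1.33 and 1.22% with the control virus and 0.697, 0.778 and 1.68% with LMO2 of ALDOA plus ALDOC (exact p = 0.3). ENO2 made up 3.83, 3.03 and 3.1% with the control virus and 2.42, 2.16 and 3.48% with LMO2 of ENO1 plus ENO2 (exact p = 0.3). Adjusted over the 11 families, these p-values were 0.55 to 0.8. In both minor forms, ALDOC and ENO2, the largest shares were those of control replicate 1 and LMO2 replicate 3.

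The comparison was repeated with single libraries left out. Without control replicate 1, none of the 40 genes was called by edgeR, against 0.747% of all genes called higher and 0.279% lower. Of the 40, 7 had an unadjusted p under 0.05, a count for which the share of all genes is not given in this setting. The median log2 fold change of the 40 was −0.00. This loss of calls was not particular to that library, since none of the 40 was called without control replicate 2 (0.745% of all genes higher and 0.339% lower), without control replicate 3 (0.620% and 0.255%) or without LMO2 replicate 1 (1.09% and 0.294%) either. Only ADM was called without LMO2 replicate 2 (3.54% and 1.86%). Without LMO2 replicate 3, HIF1A and ADM were called higher and 13 genes lower, against 7.97% and 6.72% of all genes. The 13 were EPAS1, EGLN1, CA9, CA12, NDRG1, DDIT4, P4HA1, SLC2A3, PFKFB4, ALDOC, ENO2, LDHA and LDHB. Several of these values moved widely between the omission of control replicate 1 and that of LMO2 replicate 3. The log2 fold change of CA12 was −0.03 in the former and −0.87 (adjusted p = 0.0350) in the latter. For SLC2A3 it was −0.31 and −1.13 (adjusted p = 0.0423), for PFKFB4 −0.34 and −0.99 (adjusted p = 0.00389), and for ALDOC 0.01 and −1.18 (adjusted p = 0.0136).

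With both libraries left out, which leaves 2 against 2 libraries and was chosen after seeing the data, 3 genes were called higher and 16 lower, against 9.67% and 8.53% of all genes. The genes called higher were HIF1A (log2 fold change 0.60, adjusted p = 2.61e-04), ADM (0.66, adjusted p = 3.65e-04) and PFKFB3 (0.32, adjusted p = 0.0113). Among the 16 called lower, CA9 was at −1.40 (adjusted p = 8.33e-05), NDRG1 at −1.25 (adjusted p = 4.12e-05), DDIT4 at −0.87 (adjusted p = 0.00168) and P4HA1 at −0.75 (adjusted p = 0.00106). EPAS1 was at −0.64 (adjusted p = 2.96e-04), ALDOC at −0.85 (adjusted p = 5.80e-04) and PFKFB4 at −0.85 (adjusted p = 6.73e-04). The rest were ARNT, EGLN1, CA12, BNIP3L, SLC2A3, PGK1, ENO2, LDHA and LDHB. The p-values of this comparison rest on the small spread of the libraries that were kept, and the labels give nothing that sets the omitted libraries apart. In RNA, the omitted LMO2 replicate 3 had more LMO2 than the others of its group, 876.4 CPM against 332.5 and 306.5 CPM. In the omitted control replicate 1 LMO2 was at 0.606 CPM, against 0.802 and 0.378 CPM. Whether the level of LMO2 bears on the spread within the groups was not tested.

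**Figure D4:**
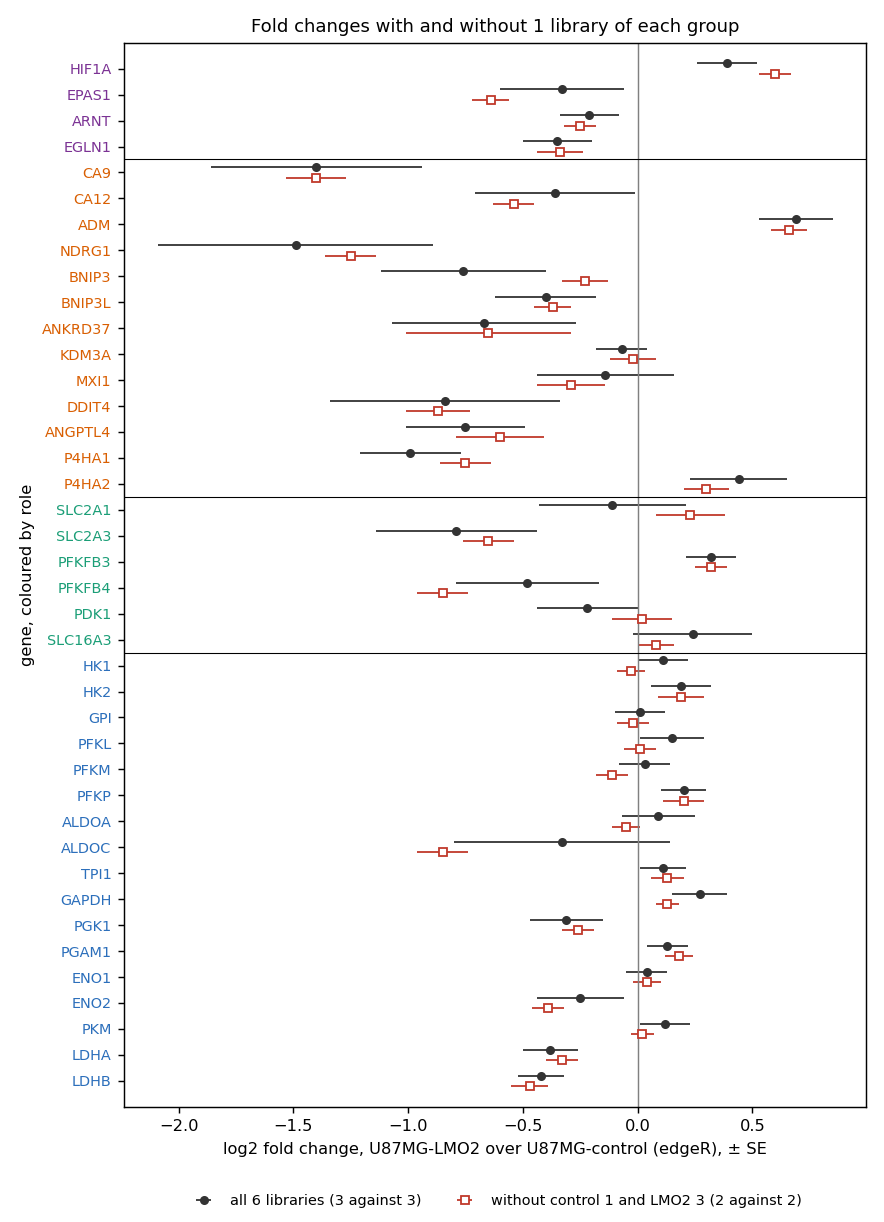
Log2 fold change of U87MG-LMO2 over U87MG-control with its SE for each of the 40 genes, with all 6 libraries (filled circles) and without control replicate 1 and LMO2 replicate 3 (open squares). NDRG1 is at −1.49 and −1.25 and CA9 at −1.40 in both, where omitting the libraries singly moved CA9 in opposite directions (−0.81 and −1.98), the SE is smaller in the second fit, and most glycolytic enzymes lie near 0 in both.

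The other genes of the pathway were counted from lists of 82 genes, of which 74 were tested. Of the 74, 2 were higher and 3 lower in U87MG-LMO2, with a median log2 fold change of −0.11. Over all genes tested 4.72% were called higher and 2.75% lower, so these are shares near the background. The same background applies to the counts of each list below. Among 15 other HIF regulators only ARNT2, a relative of ARNT that can also pair with HIF alpha subunits, was called. ARNT2 was 3.38, 7.29 and 6.57 CPM with the control virus and 17.8, 18.9 and 16.3 CPM with LMO2, with every U87MG-LMO2 library above every control, and its log2 fold change was 1.61 ± 0.24 (SE, adjusted p = 0.0109). That call held in each alternative run except without control replicate 3. VHL was at 40.5 to 52.8 CPM in all libraries, with a log2 fold change of 0.11 (adjusted p = 0.572).

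Of 25 other HIF targets, GYS1, the muscle-type glycogen synthase, had a log2 fold change of 0.43 ± 0.10 (SE, adjusted p = 0.0376) and was called higher, and 24 were not called. The GYS1 call was kept in 9 of 15 alternatives and was lost after the GC correction and on leaving out any control or LMO2 replicate 1. The median log2 fold change of the 25 was −0.26. Control replicate 1 was the highest control in 23 of the 25, against 40.98% of all genes, as in all 13 targets above. LMO2 replicate 3 was the highest U87MG-LMO2 library in only 15 of the 25, against 40.2% of all genes. Its median ratio to the others was 1.18 in the 25, whereas it was 1.61 in the 13 targets above, where it was highest in 12. VEGFA, the main vessel growth factor of the HIF response, was 379.5, 163.4 and 167.6 CPM with the control virus and 123.8, 184.0 and 272.0 CPM with LMO2, with a log2 fold change of −0.29 (adjusted p = 0.652) and groups that overlapped. Of 14 tested further glycolysis and lactate genes, HKDC1, a hexokinase-like gene, was lower at −0.51 (adjusted p = 0.0279), a call kept in 9 of 15 alternatives and lost on leaving out any library except LMO2 replicate 3. Of 12 tested genes of pyruvate entry into mitochondria, PDP1 (−0.77, adjusted p = 0.0175) and PDP2 (−0.50, adjusted p = 0.0491) were lower. The PDP1 call was lost on leaving out any control or LMO2 replicate 1, and the PDP2 call was kept in only 5 of 15 alternatives, being lost also with upper-quartile normalization, the filter of 10 counts and limma on FPKM. Both encode phosphatases that reverse the action of PDK1 on pyruvate dehydrogenase. None of the 8 genes of the pentose phosphate pathway was called by edgeR, and DESeq2 called 0. An unadjusted p under 0.05 was found for 2 of them, against 25.7% of all genes.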

How the data were processed

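Total RNA of 6 libraries of the U87MG line was sequenced by a service company, with 3 libraries per group as the labels give them. For each library the authors deposited an expected count and an FPKM per Entrez gene. The expected counts deposited by the authors are estimated reads per gene that are not normalised and need not be whole. The FPKM values deposited by the authors are scaled by gene length and mapped reads and rounded to 2 decimals. The submitters' processing notes name Bowtie2, BWA and GRCh38.p12; their roles, versions and the counting program are not given in the sources used here. A further deposited table holds the authors' group means, the log2 ratio, the direction and a probability for their comparison; its ratios and probabilities were not used.

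Genes without a line were taken as 0. The table of U87MG-LMO2 replicate 3 had 3 broken lines, and 132 genes whose FPKM did not match the authors' mean (within 0.001) were left out. None of the 41 listed genes was among them, and their share of the control counts was 0.35%. Symbols came from a RefSeq gene table (assembly GRCh38.p14) by Entrez ID and matched 89.6% of the genes.

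Expected counts were rounded and tested with edgeR 4.0.16 (filterByExpr, TMM, glmQLFit, glmQLFTest, 2-sided, no block) in R 4.3.3, with Benjamini-Hochberg adjustment over 16092 genes and calls at 0.05. CPM was scaled by TMM-adjusted library sizes. Paralog shares were computed from FPKM and compared with exact permutation tests (scipy 1.17.1). No list test was run. Only the edgeR fit was tested on simulated data. The simulated fold changes were larger than those of ADM, P4HA1 and LDHB, and no simulated library stood apart within its group. That check therefore does not cover these conditions. The tests cover the spread between these libraries only.

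Other settings tried were upper-quartile normalization, DESeq2 1.42.0, all genes without a count filter, a minimum of 10 counts per library, limma 3.58.1 on log2(FPKM + 1) and log2(FPKM + 0.1) (fold changes on these scales understate those of low genes), the replicate number as a block, a GC correction (lowess span 0.3, GC known for 89.8% of tested genes) and leaving out each library. The GC correction was tested with limma on corrected log2 CPM of 14458 genes, so the test and the gene set changed with it. Leaving out U87MG-control replicate 1 and U87MG-LMO2 replicate 3 together, the promoter window of 300 bases, and FPKM or upper-quartile scaling for the ratios were added after seeing the data.

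The genes, the lists and the rule for naming genes were chosen with earlier results of these data known. The rule named the called genes, the highest and lowest log2 fold change of each role, HIF1A, EPAS1, ARNT, GAPDH and the paralog families, and of the other lists the called genes, VHL and VEGFA. Other genes given by library were chosen after their values were seen.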

Additional observations from a re-analysis of the deposited data

How the results depend on the processing

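Over the 40 genes and 15 alternatives, 517 of 600 fold changes kept their direction and their side of the threshold; 12 genes changed sign in some alternative, and 16 were called in some alternative but not with all 6 libraries. The cause of these changes was not tested. DESeq2 called 2 glycolysis and glucose transport genes lower instead of 1, and 5 other pathway genes higher and 8 lower instead of 2 and 3. Over all genes DESeq2 called 6.25% higher and 4.29% lower, against 4.72% and 2.75% with edgeR. Without a filter on low counts, 2 HIF-side genes were lower instead of 1 (CA9 was added, adjusted p = 0.0320), and of the other pathway genes 4 were higher and 5 lower. Over all genes, 3.45% were higher and 1.86% lower in that setting. After the GC correction HIF1A alone was called (0.60, adjusted p = 0.0117): 1 gene was higher, 0 were lower on either side, and 5 other pathway genes were lower. Over all genes, 3.26% were higher and 2.65% lower after that correction. Upper-quartile normalization, the stricter filter and limma on both FPKM scales left ADM, P4HA1 and LDHB as the genes called.

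The replicate numbers did not pair the libraries: the correlations of deviations within numbers were −0.12, −0.00 and −0.04. With the replicate block, 0 of the 40 genes were called higher and 0 lower (against 2.40% and 1.17% of all genes), with adjusted p of 0.0675 for ADM, 0.0602 for P4HA1 and 0.0868 for LDHB, and 1 other pathway gene was higher and 1 lower.

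Leaving out 1 library at a time, 0 to 2 genes were called higher and 0 to 13 lower. On the HIF side these ranges were 0 to 2 and 0 to 7, among glycolysis and glucose transport genes 0 to 0 and 0 to 6, and among other pathway genes 0 to 4 and 0 to 11. The highest numbers lower came without LMO2 replicate 3, and 0 of the 40 genes were lower without any of the other 5 libraries. The shares of all genes called moved as well, from 0.620% to 7.97% higher and from 0.255% to 6.72% lower. Without both control replicate 1 and LMO2 replicate 3, 3 of the 40 genes were higher and 16 lower, against 9.67% and 8.53% of all genes. These were 2 and 9 on the HIF side and 1 and 7 in glycolysis and glucose transport. Of the other pathway genes 4 were higher and 14 lower.

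Log2 fold changes that changed sign, none of them called, ranged over single libraries left out from −0.53 to 0.10 for MXI1, −0.31 to 0.39 for SLC2A1, −0.38 to 0.10 for PDK1, −0.12 to 0.44 for SLC16A3, −0.08 to 0.08 for GPI, −0.02 to 0.24 for PFKL, −0.05 to 0.08 for PFKM, −0.12 to 0.20 for ALDOA and −0.62 to 0.22 for VEGFA. ALDOC ranged from −1.18, which was called, to 0.01. The GC correction gave 0.07 for KDM3A, −0.11 for SLC16A3, −0.15 for GPI, −0.14 for PFKL, −0.00 for PFKM, −0.13 for ALDOA and −0.01 for ENO1. limma on either FPKM scale gave −0.12 for GPI and −0.01 for PFKM. Without both libraries, SLC2A1 was at 0.23, PDK1 at 0.02, HK1 at −0.03 (0.04 to 0.17 without single libraries), GPI at −0.02, PFKM at −0.11 and ALDOA at −0.05.

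Among the shares, single libraries left out moved the difference from −0.243 to 1.24 percentage points for HK2, −0.148 to 3.72 for PFKP, −2.66 to 0.188 for LDHB and −5.78 to 0.71 for BNIP3; the shares of SLC2A3, P4HA2, PFKFB4 and CA9 kept their direction. The count of 33 genes highest in control replicate 1 was 33 with FPKM and with upper-quartile scaling. In the 300-base window 27 promoters (73%) held a motif, against 48.4% of all promoters and 61.4% of those of tested genes. No share was computed for EGLN1 and EGLN3, since EGLN3 was not analysed here. Depth limits ANKRD37 most, at under 4 CPM in every library.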
